A study of Mus musculus with 9 samples.

Results

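The genes described here are the nuclear-encoded subunits of respiratory complexes II to V and cytochrome c in MC38 cells, a mouse colon carcinoma line. They were taken by symbol: Sdha to Sdhd (complex II), every Uqcr gene and Cyc1 (complex III), Cycs (cytochrome c), every Cox4 to Cox8 gene (complex IV) and every Atp5 gene (complex V). The rule found 45 of the 16509 genes in the expression table, with 4 in complex II, 9 in complex III, 1 for cytochrome c, 14 in complex IV and 17 in complex V. The mitochondrially encoded subunits were not analysed here. RNA was sequenced from 3 groups of 3 libraries each. Ctrl cells received vehicle, which is PBS in the study's methods and DMSO in the sample labels. Cu-Cys cells received copper and cystine, and Cadict cells received a nanoparticle made of copper, cystine and glucose oxidase that carries the GE11 peptide. All groups came from the single line MC38. No dose or treatment time was given for these libraries, and the table's column name for Cadict was matched to it by its components. The study's methods say in general that cell experiments were repeated independently, but neither they nor the labels say how the libraries of a group were cultured, so p-values measure the spread between these libraries, which may be technical.

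The respiratory chain passes electrons along the inner mitochondrial membrane to oxygen and stores the released energy as a proton gradient. Complex II (succinate dehydrogenase) takes electrons from succinate and is also an enzyme of the citric acid cycle. Complex III hands them to cytochrome c, complex IV (cytochrome c oxidase) passes them to oxygen with copper and heme centres, and complex V (ATP synthase) uses the gradient to make ATP. All subunits of complex II are encoded in the nucleus, whereas complexes III, IV and V combine nuclear and mitochondrial products and need dedicated assembly factors.

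The total count per library was 17905771 to 18293056. Levels are given as TMM-scaled CPM (counts brought to an equal library size by edgeR's TMM factors, comparable between libraries for 1 gene) or as the deposited TPM (which divides by transcript length and allows levels of different genes to be compared). The scale matters in these libraries, which differ in composition. The 100 most abundant genes took 29.8% to 31.1% of the counts in Cadict libraries and 17.2% to 18.2% in the others. How much of the gap between scales goes with these genes was not tested. The TMM factors were 1.26 to 1.27 in Ctrl, 1.21 in Cu-Cys and 0.640 to 0.665 in Cadict. Over all 11949 tested genes, the median of the log2 fold changes in Cadict against Ctrl was -0.13 on the TMM scale and -1.08 on the scale of library totals, so a member with a TMM log2 fold change of 0.95 kept its share of the library. Ratios between members within a library do not depend on this choice. Cadict replicate 2 stood apart from the other Cadict libraries, with a chi-square per gene of 18.5 and 29.4 against them, where the other 2 differed by 4.29. It held the highest level of the 3 Cadict libraries for 43 of the 43 tested members, so values without it are given for the main counts. Its median log2 level over the Cadict mean was 0.24 for the members and -0.0028 for all genes. The share of all genes that were highest in it is not given here. Of the epithelial markers, Epcam, Krt8, Krt18 and Vil1 were at or near 0 TPM in every group. The summed TPM of the epithelial list (6 of 7 markers in the table) was 4.22 to 6.24 in Ctrl, 3.50 to 3.95 in Cu-Cys and 11.5 to 13.2 in Cadict. The summed TPM of the fibroblast and endothelial list (4 of 4 markers) was 278 to 303 in Ctrl, 147 to 155 in Cu-Cys and 26.7 to 33.5 in Cadict, mostly from Col1a2. The summed TPM of the immune list (3 of 5 markers in the table) was 1.35 at most. These lists moved with the treatment, and their part in the results below was not tested. In RNA from whole cultures, fewer cells of a type and less RNA per cell cannot be told apart.

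Genes of the respiratory chain are known targets of NRF1 and of the ETS factor GABP (NRF2), and their binding motifs lie in many of these promoters. RefSeq promoters (build GRCm38.p6, 250 bases before to 50 after the start) were found for 34 of the 45 members. The NRF1 letters CGCANGCG on either strand occurred in 15 of the 34, or 44.1%, against 14.5% of the 12889 promoters of genes in the table. The ETS letters CCGGAAG on either strand occurred in 12 of the 34, or 35.3%, against 15.4% of the table's promoters. The YY1 letters AAGATGGC were found in 5.88% of the members' promoters and 4.02% of the table's, and CCAAT in 55.9% and 39.0%. The searched motifs share no stretch, 7 members held both the NRF1 and the ETS letters, and 14 held neither. The 250 bases before the start are printed here for 6 members, 5′ to 3′ along the gene, with matches to NRF1, ETS or YY1 letters in capitals. Cycs is shown for the largest rise among the abundant members, Cox6a1 and Atp5md for holding NRF1 matches in complexes IV and V, Cox5a as a member that rose without any of these letters in the window, and Sdha and Sdhd for complex II.
Cycs, chr6:50566570-50566819, minus strand: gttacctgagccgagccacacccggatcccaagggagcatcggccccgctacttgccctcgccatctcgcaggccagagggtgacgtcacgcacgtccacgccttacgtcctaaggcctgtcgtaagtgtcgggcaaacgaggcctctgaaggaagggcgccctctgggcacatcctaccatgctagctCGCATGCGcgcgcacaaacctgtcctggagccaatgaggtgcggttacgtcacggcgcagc
Cox6a1, chr5:115348959-115349208, minus strand: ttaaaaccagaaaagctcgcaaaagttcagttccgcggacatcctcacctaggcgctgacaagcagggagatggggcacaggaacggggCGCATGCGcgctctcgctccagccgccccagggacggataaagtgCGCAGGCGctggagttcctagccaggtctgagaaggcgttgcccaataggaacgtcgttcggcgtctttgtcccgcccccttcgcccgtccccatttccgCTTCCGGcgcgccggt
Cox5a, chr9:57520982-57521231, plus strand: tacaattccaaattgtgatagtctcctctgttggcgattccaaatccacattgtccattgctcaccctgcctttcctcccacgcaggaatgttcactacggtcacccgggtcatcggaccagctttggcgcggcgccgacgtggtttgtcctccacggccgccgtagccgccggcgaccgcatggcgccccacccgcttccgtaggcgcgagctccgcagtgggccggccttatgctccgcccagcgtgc
Atp5md, chr19:47090648-47090897, minus strand: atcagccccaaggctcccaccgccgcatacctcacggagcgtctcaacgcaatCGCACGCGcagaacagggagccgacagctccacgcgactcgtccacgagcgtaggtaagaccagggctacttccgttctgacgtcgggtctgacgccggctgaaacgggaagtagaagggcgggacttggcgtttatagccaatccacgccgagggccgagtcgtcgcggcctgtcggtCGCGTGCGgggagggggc
Sdha, chr13:74350241-74350490, minus strand: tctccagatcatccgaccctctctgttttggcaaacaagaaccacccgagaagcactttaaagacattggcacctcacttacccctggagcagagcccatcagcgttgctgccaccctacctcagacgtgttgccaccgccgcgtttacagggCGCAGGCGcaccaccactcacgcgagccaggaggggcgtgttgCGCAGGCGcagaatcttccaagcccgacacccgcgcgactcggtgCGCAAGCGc
Sdhd, chr9:50603850-50604099, minus strand: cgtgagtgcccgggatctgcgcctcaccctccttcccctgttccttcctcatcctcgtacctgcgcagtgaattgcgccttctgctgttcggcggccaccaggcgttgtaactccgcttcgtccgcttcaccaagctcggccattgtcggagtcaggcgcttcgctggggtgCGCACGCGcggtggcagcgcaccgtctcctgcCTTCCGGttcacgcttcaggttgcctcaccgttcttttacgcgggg
Sdha held 3 NRF1 matches, at positions -97, -54 and -9 from the start, and Cycs held 1, at -61. Of these 2 genes, Sdha had the smallest rise of all members with Cadict and Cycs a far larger one. The number of matches was not compared with the change over all members. The median TMM log2 fold change with Cadict was 0.93 for the 15 tested members with NRF1 letters (0.20 to 2.24) and 1.26 for the 18 without (0.85 to 1.88), a description without a test. Cyc1 and Sdhc, the only members that fell with Cadict, had no promoter in the set and are in neither group. A match is a stretch of letters and not a measured binding site.

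Cadict was compared with Ctrl to ask how the respiratory subunits stood in treated cells. Of the 45 members, 43 passed the filter on low counts. Cox4i2 and Cox7a1 did not, and Cox6a2 passed only through its Cadict libraries. On the TMM scale 41 of the 43 members were higher (adjusted p of at most 0.05 by edgeR's quasi-likelihood test), against 40.6% of all tested genes, and 2 were lower, against 47.1%. Without Cox6a2 the counts were 40 and 2 of 42. At the stricter rule of an adjusted p of at most 0.001 with a 2-fold change or more, 26 members were higher, against 20.7% of all genes, and 1 was lower, against 27.1%. The median log2 fold change of the members was 1.24, beside -0.13 for all genes tested. Without Cox6a2, 25 passed the 2-fold rule upwards and the median was 1.16. Without Cadict replicate 2, 39 members were higher and 2 lower, 22 passed the 2-fold rule upwards, and the median was 1.03.

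The direction of single members depended on the scale. On library totals 22 members were higher and 10 lower, and on TPM with a pseudocount of 1 the counts were 10 and 22. All genes moved down on these scales, with medians of -1.08 on library totals and -1.13 on TPM. The shares of all genes called on them are not given here, so these counts have no background beside them. Over 5 scalings (TMM, DESeq2 size factors, library totals, FPKM and TPM), 10 members were higher and past the test in all of them: Uqcr10, Cycs, Cox4i1, Cox5a, Cox5b, Cox6a1, Cox6a2, Cox6c, Atp5b and Atp5pb. Of these, Cox6a2 had passed the filter only through its Cadict libraries. Cyc1 and Sdhc were lower and past the test in all 5. The members' median minus the median of all genes was 1.37 on the TMM scale, 1.37 on library totals and 0.93 on TPM. Much of this steadiness is built in. TMM, DESeq2 size factors and library totals differ by a nearly equal shift of every gene, and so do FPKM and TPM. That 41 of 43 members lay above the median gene on each of the 5 scales is therefore not 5 separate checks. In the text below, higher and lower refer to the TMM scale unless another is named.

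**Figure D1:**
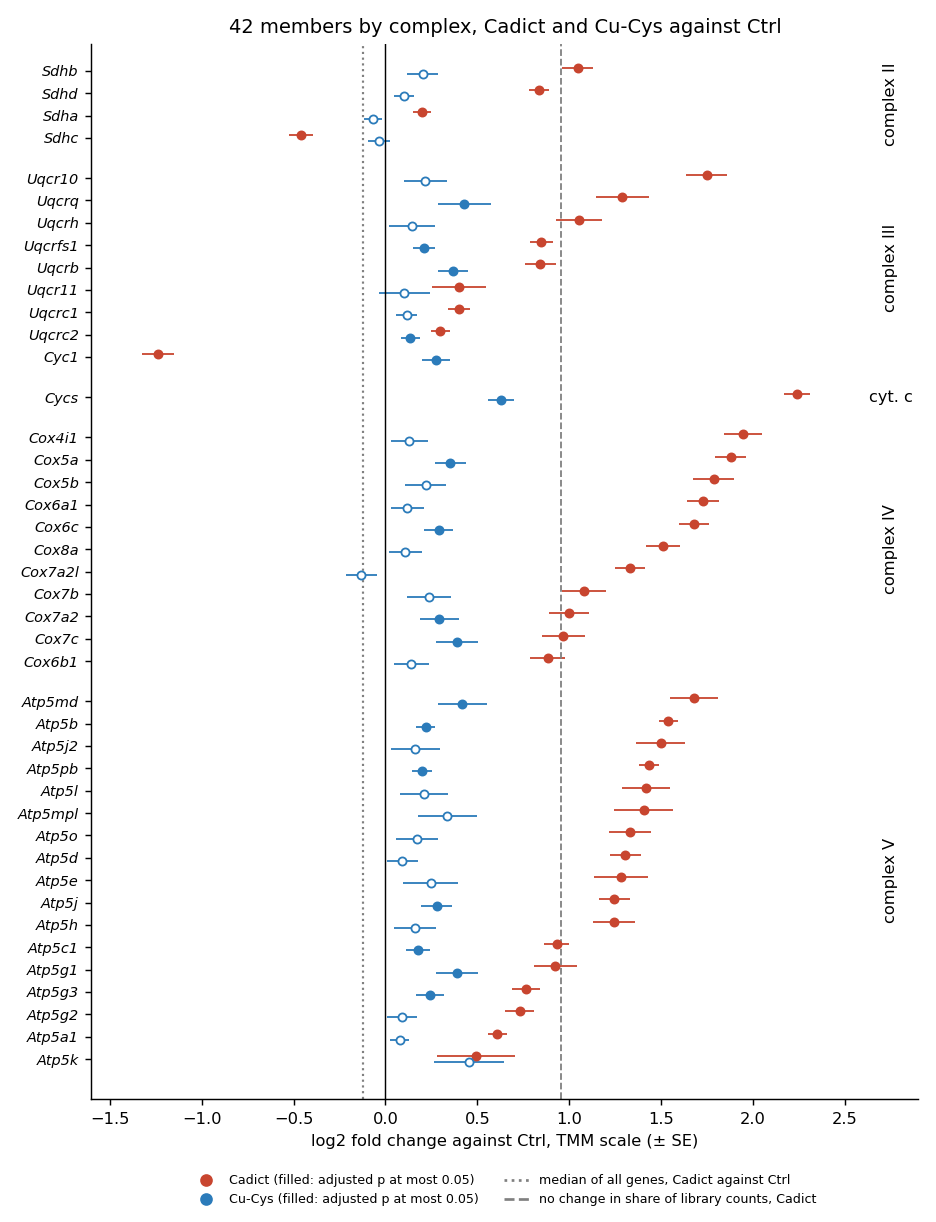
Log2 fold change against Ctrl on the TMM scale (x axis, ± SE, 3 libraries a group) of the 42 tested members other than Cox6a2, grouped by complex (y axis), for Cadict (red) and Cu-Cys (blue), with filled points past an adjusted p of 0.05. The dotted line is the median of all genes with Cadict (-0.13) and the dashed line, at 0.95, marks no change in the share of library counts, which most members of complexes IV and V exceeded and 3 of the 4 members of complex II did not.

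Complex II had the lowest median log2 fold change with Cadict (0.52), and its subunits did not move together. Sdhb, the iron-sulfur subunit, and Sdhd, a membrane anchor, rose with Cadict, Sdha, the flavoprotein, rose slightly, and Sdhc, the other membrane anchor, fell. The level of Sdhc was 94.8, 96.1 and 94.2 CPM in the Ctrl libraries, 89.8, 95.4 and 93.4 in Cu-Cys and 67.2, 76.6 and 63.6 in Cadict, a log2 fold change of -0.46 ± 0.06 (SE, adjusted p = 4.78e-06). All Cadict libraries lay below all Ctrl libraries. The level of Sdhb was 55.1, 62.6 and 59.5 CPM in Ctrl, 67.1, 71.8 and 65.3 in Cu-Cys and 118, 141 and 107 in Cadict, a log2 fold change of 1.05 ± 0.09 (SE, adjusted p = 9.93e-09). For Sdhd, the mean rose from 80.9 ± 3.8 CPM in Ctrl to 144 ± 8.3 in Cadict (SD, n = 3), a log2 fold change of 0.84 ± 0.06 (SE). The Ctrl and Cadict libraries of Sdhb and Sdhd did not overlap on the TMM scale. Groups without overlap, here and below, were common among all tested genes. With Cadict against Ctrl, 40.3% of them lay wholly higher and 47.3% wholly lower, and with Cu-Cys against Ctrl 31.4% and 29.9%. Sdha was 173, 169 and 173 CPM in Ctrl and 198, 205 and 188 in Cadict, a log2 fold change of 0.20 ± 0.05 (SE, adjusted p = 0.00168). The log2 fold changes of Sdha and Sdhd were below 0 on library totals (-0.76 and -0.12), and that of Sdhb was below 0 on TPM (-0.28), whereas Sdhc was lower on every scale. Within each library the ratio of Sdhb to Sdhc counts was 0.581, 0.652 and 0.632 in Ctrl, 0.747, 0.752 and 0.699 in Cu-Cys and 1.76, 1.84 and 1.68 in Cadict. The groups did not overlap, and the exact permutation test of Cadict against Ctrl gave p = 0.10, the smallest that 3 against 3 allows (two-sided, pair chosen after its values were seen).

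**Figure D2:**
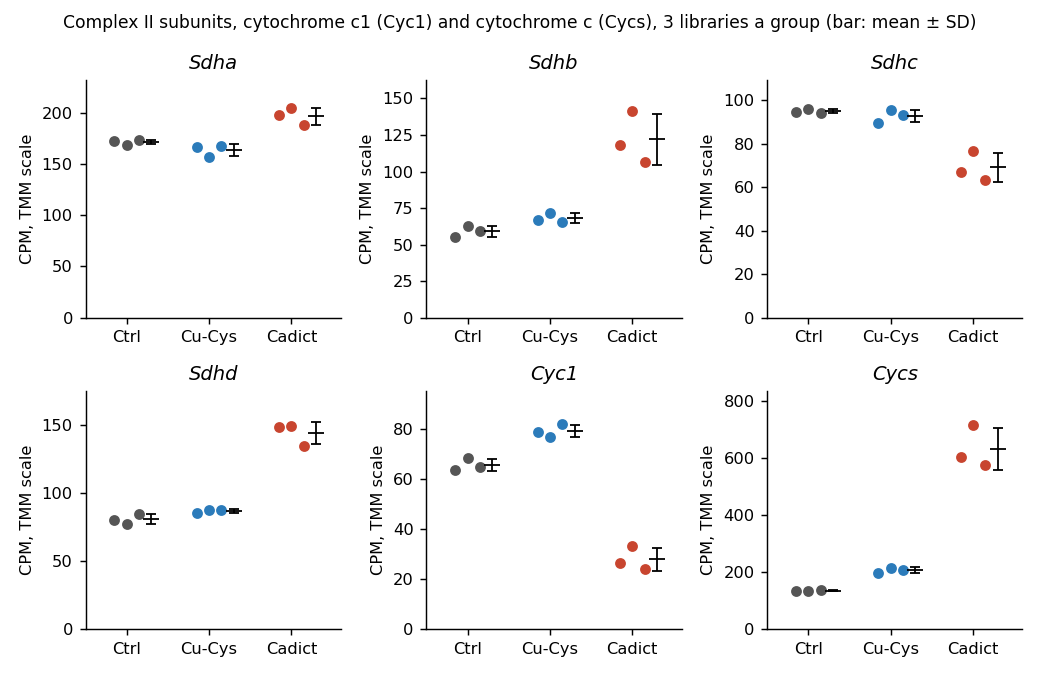
Level in CPM on the TMM scale (y axis, from 0) of the 4 complex II subunits, cytochrome c1 (Cyc1) and cytochrome c (Cycs) in each of the 3 Ctrl, 3 Cu-Cys and 3 Cadict libraries (points), with the group mean ± SD. Cyc1 and Sdhc were lowest in the Cadict libraries, while Cycs rose from 134 CPM in Ctrl to 207 in Cu-Cys and 632 in Cadict.

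Cytochrome c and cytochrome c1, neighbours in the chain, moved apart with Cadict. Cyc1 encodes the heme subunit of complex III that passes electrons to cytochrome c, and Cycs encodes cytochrome c, which is also known as a trigger of apoptosis once released from mitochondria. Cyc1 was 63.4, 68.1 and 64.9 CPM in Ctrl, 78.6, 76.9 and 82.0 in Cu-Cys and 26.2, 33.0 and 24.1 in Cadict. It fell with Cadict by 1.24 ± 0.09 on the log2 scale (SE, adjusted p = 1.44e-09) and rose with Cu-Cys by 0.27 ± 0.07 (adjusted p = 0.00822), with no overlap of either group with Ctrl. The rise with Cu-Cys did not pass the test on every scale, while the fall with Cadict did. Cycs was 135, 132 and 136 CPM in Ctrl, 197, 215 and 208 in Cu-Cys and 604, 716 and 576 in Cadict. It rose by 2.24 ± 0.07 with Cadict (SE, adjusted p = 1.31e-13) and by 0.63 ± 0.07 with Cu-Cys (adjusted p = 6.68e-06), the largest rise of any member in each comparison apart from the near-absent Cox6a2 with Cadict. Within a library, the ratio of Cycs to Cyc1 counts was 2.13, 1.93 and 2.09 in Ctrl, 2.51, 2.80 and 2.54 in Cu-Cys and 23.1, 21.7 and 23.9 in Cadict. Each step up separated the groups without overlap, and each pair of groups gave an exact permutation p of 0.10, the smallest possible (two-sided, ratio chosen after its values were seen). Cycs shared 25.9% of its 50-base stretches with transcripts of 43 other genes, so some of its reads could belong to copies, whereas Cyc1 shared none.

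In complex III apart from Cyc1, 8 of the 8 tested members were higher with Cadict, with log2 fold changes of 0.30 to 1.75 and a median of 0.85. The small accessory subunits Uqcr10, Uqcrq and Uqcrh rose most. Uqcr10 went from 20.4, 20.4 and 21.8 CPM in Ctrl to 65.2, 84.2 and 60.8 in Cadict, a log2 fold change of 1.75 ± 0.11 (SE, adjusted p = 5.36e-10), and was the only complex III member that was higher on all 5 scales. Uqcrq rose by 1.29 ± 0.15 and Uqcrh by 1.05 ± 0.13, and each turned lower on TPM (-0.06 and -0.35). The iron-sulfur subunit Uqcrfs1 rose by 0.85 ± 0.06, while the large core proteins Uqcrc1 and Uqcrc2, named after their values were seen, rose by 0.40 and 0.30. On library totals these 3 were below 0 (-0.11, -0.56 and -0.66). Uqcr11 was among the weakest, with 16.0, 15.2 and 16.1 CPM in Ctrl and 19.5, 27.3 and 15.7 in Cadict, so that its groups overlapped (adjusted p = 0.0190), and a log2 fold change of -0.55 on library totals. The ratio of Uqcrfs1 to Cyc1 counts, subunits that both carry electrons, was 0.773 to 0.819 in Ctrl and 2.99 to 3.68 in Cadict.

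In complex IV, 11 of the 11 tested members other than Cox6a2 were higher with Cadict, with a median log2 fold change of 1.51, and 9 passed the 2-fold rule. Cox4i1, the common form of subunit 4, was 173, 192 and 190 CPM in Ctrl, 199, 207 and 202 in Cu-Cys and 666, 880 and 594 in Cadict. Its log2 fold change with Cadict was 1.95 ± 0.11 (SE, adjusted p = 5.96e-11), every Cadict library was above every other library, and by mean TPM it passed from the second to the first place among the 45 members (962 ± 41.9 in Ctrl, 1449 ± 159 in Cadict, SD, n = 3). Cox5a rose by 1.88 ± 0.08 and Cox5b by 1.79 ± 0.11, both nuclear subunits that surround the catalytic core. The ratio of Cox4i1 to Sdha counts was 1.00 to 1.14 in Ctrl, 1.19 to 1.32 in Cu-Cys and 3.16 to 4.3 in Cadict.

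Subunits of complex IV with tissue-specific forms were compared by paralog. For subunit 6A, the ubiquitous Cox6a1 went from 52.7, 57.6 and 53.4 CPM in Ctrl to 180, 209 and 153 in Cadict (log2 fold change 1.73 ± 0.09, SE). The heart and muscle form Cox6a2 had 1, 1 and 0 counts in Ctrl, 0 in each Cu-Cys library and 43, 46 and 41 in Cadict. Pooled counts put Cox6a2 128 times higher in Cadict than in Ctrl (exact 95% interval 34.7 to 1070, counting error only) and at least 26.9-fold higher than in Cu-Cys, against a limit of 3 counts per library. Its mean level in Cadict was still only 9.44 ± 0.21 TPM (SD, n = 3), beside 708 ± 54.1 for Cox6a1. Cox4i2, a form known from lung and from low oxygen, had at most 3 counts in any library, and Cox7a1, the muscle form of subunit 7A, had at most 8, with 6 pooled counts in Cadict and 22 in Ctrl (ratio 0.536, exact 95% interval 0.178 to 1.36). Cox7a2, the common form, rose by 1.00 ± 0.11, and Cox7a2l, which links complexes III and IV into supercomplexes, by 1.33 ± 0.08. Cox7b rose by 1.08 ± 0.12, Cox8a by 1.51 ± 0.09 and Cox6b1 by 0.88 ± 0.10. Cox6b1 was lower on library totals (-0.07), and Cox7a2, Cox7a2l and Cox7b were below 0 on TPM (-0.36, -0.0004 and -0.27). The table held no Cox6b2, Cox7b2, Cox8b or Cox8c among the members.

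Complex V followed, with 17 of 17 members higher with Cadict, a median log2 fold change of 1.28 and 11 past the 2-fold rule. Atp5b, the catalytic beta subunit of the F1 head, was 818, 841 and 823 CPM in Ctrl, 970, 953 and 966 in Cu-Cys and 2403, 2562 and 2248 in Cadict. It rose by 1.54 ± 0.05 with Cadict (SE, adjusted p = 2.54e-13). Atp5a1, the alpha subunit that alternates with beta in the same hexamer, was 618, 633 and 627 CPM in Ctrl and 947, 1012 and 900 in Cadict, a rise of 0.61 ± 0.05 (adjusted p = 1.62e-08). The groups of neither gene overlapped between Ctrl and Cadict, and on TPM Atp5a1 was lower in Cadict, at 391 ± 15.7 against 635 ± 6.5 (SD, n = 3), as it was on library totals (log2 fold change -0.35). In the peripheral stalk, which holds the head still, 4 of 4 members were higher, by 1.24 to 1.43. On TPM, however, Atp5o (-0.04), Atp5h (-0.15) and Atp5j (-0.14) were below 0, and only Atp5pb stayed above it (0.11). For the c ring, which turns with the proton flow, Atp5g1, Atp5g2 and Atp5g3 encode an identical mature protein and rose by 0.92 ± 0.12, 0.73 ± 0.08 and 0.77 ± 0.08 (SE), and all 3 were lower on library totals (-0.03, -0.23 and -0.19). Atp5g2 shared 38.3% of its 50-base stretches with 3 other genes and Atp5g1 10.2%, so reads could be split between copies. Among the small membrane subunits, Atp5md rose by 1.68 ± 0.13, from 15.8, 20.1 and 19.5 CPM to 55.7, 72.0 and 49.96, and Atp5j2 by 1.5 ± 0.13. Atp5k moved least, with 7.22, 7.75 and 5.89 CPM in Ctrl and 9.26, 13.6 and 6.63 in Cadict, overlapping groups (adjusted p = 0.0400) and a log2 fold change of -0.46 on library totals.

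Cu-Cys was compared with Ctrl as the copper and cystine treatment without glucose oxidase and the GE11 peptide. It moved the members far less. On the TMM scale 17 of 43 members were higher, against 22.6% of all genes, and 0 were lower, against 22.4%. At an unadjusted p of at most 0.05 in the same edgeR fit, 19 were higher and 0 lower, against 3170 and 3107 of all 11949 tested genes. DESeq2's Wald test called 17 and 0 members, and its share of all genes is not given here. At the 2-fold rule 0 members were higher, against 0.167% of all genes, and 0 lower, against 1.47%, and the median log2 fold change was 0.20, beside 0.01 for all genes. The 17 were Cycs, 5 of complex III, 4 of complex IV and 7 of complex V, and 0 of the 4 complex II subunits passed. Among members past the test with a mean of at least 10 CPM, the largest rises after Cycs were Uqcrq (0.43 ± 0.14), Atp5md (0.42 ± 0.13), Atp5g1 (0.39 ± 0.12), Cox7c (0.39 ± 0.11), Uqcrb (0.37 ± 0.08) and Cox5a (0.35 ± 0.08). Cox7a2 (0.29 ± 0.11) and Atp5j (0.28 ± 0.08) came next among those chosen. Uqcrb, the ubiquinol-binding accessory subunit of complex III, was 40.2, 40.7 and 39.1 CPM in Ctrl and 51.7, 52.4 and 50.6 in Cu-Cys, without overlap (adjusted p = 0.00210). Uqcrb, Cycs and Cox5a were higher and past the test on all 5 scales. Uqcrb shared 25.4% of its 50-base stretches with 4 other genes and Cox7c 22.1% with 3, so some of their reads could belong to copies, as for Cycs. The count of 17 rested on few libraries: it was 8 without Cu-Cys replicate 2, 10 without Ctrl replicate 1, 11 without Cu-Cys replicate 3 and 33 when the 6 libraries of the comparison were fitted alone. The shares of all genes called in these fits are not given here, so the counts may follow calls in general. Of the 17 members, 16 were also higher with Cadict against the same Ctrl libraries, and the other was Cyc1. That is near the share of all members higher with Cadict, 41 of 43.

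Cadict was also compared with Cu-Cys directly. On the TMM scale 39 of 43 members were higher, against 40.3% of all genes, and 2 lower, against 45.6%, with 20 and 1 past the 2-fold rule, against 18.6% and 23.6%. The median log2 fold change was 0.91, beside -0.10 for all genes, and without Cadict replicate 2 it was 0.72, with 15 members past the 2-fold rule upwards. Cox6a2 had 0 counts in each Cu-Cys library. Without it, 38 of 42 members were higher and 2 lower, 19 passed the 2-fold rule upwards, and the median was 0.88. The scale mattered here too: 17 members were higher and 15 lower on library totals, with a median of 0.017, and 11 and 23 on TPM, with a median of -0.33. The median of all tested genes was -0.98 on library totals and -0.96 on TPM, and the shares of all genes called there are not given. Cyc1 fell by 1.51 ± 0.09 (adjusted p = 1.37e-10) and Sdhc by 0.43 ± 0.06. Cycs rose by 1.61 ± 0.07, Sdhb by 0.84 ± 0.08, Sdhd by 0.73 ± 0.06 and Sdha by 0.27 ± 0.05, but on library totals the latter 3 were below 0 (-0.05, -0.15 and -0.62). Uqcr11 (0.30 ± 0.15) and Atp5k (0.04 ± 0.20) did not pass the test. Complex IV had the highest median (1.43, or 1.40 without Cox6a2), followed by complex V (1.07), with complexes II and III at 0.50 and 0.47.

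Summed over its members, each complex kept the order seen for single genes. Complex II took 0.0513%, 0.0511% and 0.0519% of library counts in Ctrl, 0.0493% to 0.04996% in Cu-Cys and 0.0349%, 0.0366% and 0.0328% in Cadict. Complex III took 0.0618% to 0.0640% in Ctrl and 0.0446% to 0.0571% in Cadict. Both shares were lower in every Cadict library than in every Ctrl library, although both sums were higher on the TMM scale (complex II at 406 ± 4.4 CPM in Ctrl and 532 ± 39.7 in Cadict, SD, n = 3). Complex IV took 0.0920% to 0.0967% of counts in Ctrl, 0.0972% to 0.105% in Cu-Cys and 0.127% to 0.172% in Cadict, and was higher on all 3 scales by its mean, with overlapping TPM sums (5911 to 6094 in Ctrl, 6061 to 7172 in Cadict). Complex V took 0.315% to 0.323% in Ctrl and 0.348% to 0.410% in Cadict, but its summed TPM was 9521 ± 188 in Ctrl and 8595 ± 771 in Cadict. Abundant members weigh most in such sums. Atp5b alone had 18874 to 19431 counts in Ctrl and 26772 to 29391 in Cadict, and Cox4i1 had a mean TPM of 962 and 1449. Sums without these genes were not made, so a rise of a sum need not hold for the other members. The ratio of complex IV to complex II counts within a library, which needs no scaling, was 1.79 to 1.89 in Ctrl, 1.97 to 2.11 in Cu-Cys and 3.86 to 4.69 in Cadict. For complex V to complex II it was 6.09 to 6.32, 6.89 to 6.92 and 10.6 to 11.2.

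**Figure D3:**
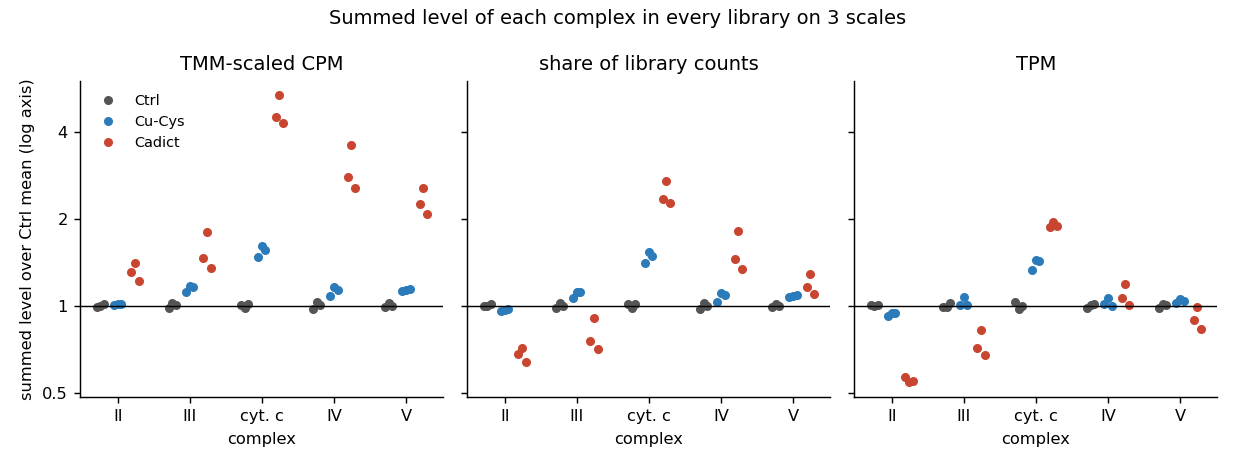
Summed level of each complex in each library (points, 3 a group) divided by the Ctrl mean (y axis, log scale), for TMM-scaled CPM, share of library counts and TPM. Cytochrome c and complex IV lay highest in Cadict on each scale, and complex II lay above 1 on the TMM scale and below 1 on the others.

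Most members have short transcripts, and short genes rose with Cadict in general. The median effective length, the number of positions a fragment can take as implied by the deposited counts and FPKM, was 382 bases for the 43 tested members and 2617 for all genes. Of the 43, 38 fell in the shortest of 5 equal bins of genes (up to 1352 bases), where the median log2 fold change of all 2390 genes was 0.56 and 35.4% passed the 2-fold rule upwards. In the other bins, from short to long, the medians were -0.09, -0.27, -0.41 and -0.40. The 38 members in the shortest bin had a median of 1.25. Within that length range Cyc1 (1080 bases) and Sdhc (850 bases) fell, and Cycs (2820 bases) was among the longest members. Spearman's correlation of length and log2 fold change was -0.29 across 42 members and -0.21 across all genes, where genes share the same libraries. The part of length in the members' change was not tested.

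**Figure D4:**
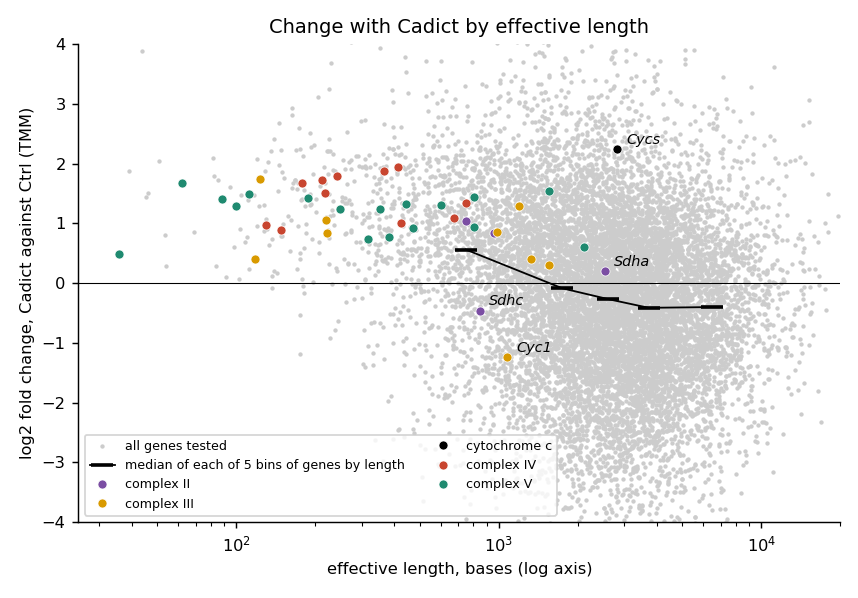
Log2 fold change of Cadict against Ctrl on the TMM scale (y axis) by effective length in bases (x axis, log scale) for all tested genes (grey, those within the axis limits) and 42 members (coloured by complex), with the median of each of 5 equal bins of genes by length (black). In the shortest bin 33 of 38 members lie above the bin's median, and Cyc1, Sdhc, Uqcrc1, Uqcr11 and Atp5k lie below it.

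The assembly factors stood near the background of all genes. Of 39 tested factors (of 40 listed), 14 were higher and 18 lower with Cadict, against 40.6% and 47.1% of all tested genes, with a median log2 fold change of -0.11. For complex IV, 7 of 22 were higher and 11 lower. The largest falls were in Taco1, a translational activator of the mitochondrial Cox1 message, from 15.6, 16.5 and 14.4 CPM in Ctrl to 0.42, 1.05 and 0.42 in Cadict (-4.61 ± 0.21, SE, adjusted p = 5.82e-12), Uqcc3, needed for complex III assembly (-2.71 ± 0.21), and Sdhaf4, needed for complex II assembly (-2.62 ± 0.19). Each was lower on all 5 scales. With Cu-Cys these 3 had log2 fold changes of -0.08, -0.21 and -0.15, none past the test.

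Genes that deliver copper to complex IV moved in opposite directions. Cox17, the chaperone that hands copper on in the space between the mitochondrial membranes, was 12.6, 13.5 and 12.95 CPM in Ctrl, 12.97, 19.1 and 16.3 in Cu-Cys and 50.6, 63.0 and 51.3 in Cadict. It rose by 2.08 ± 0.12 with Cadict (SE, adjusted p = 8.70e-11), on all 5 scales. Cox11, which serves the copper site of the Cox1 subunit, was 9.86, 7.79 and 7.94 CPM in Ctrl, 12.9, 10.9 and 10.2 in Cu-Cys and 1.70, 1.31 and 1.18 in Cadict. It fell with Cadict by 2.61 ± 0.20 (adjusted p = 4.95e-09) and rose with Cu-Cys by 0.41 ± 0.11 (adjusted p = 0.00927). The ratio of Cox17 to Cox11 counts was 1.28, 1.73 and 1.63 in Ctrl, 1.01, 1.75 and 1.60 in Cu-Cys and 29.8, 48.2 and 43.6 in Cadict. The Cadict ratios rest on only 20, 15 and 14 counts of Cox11. Sco1 and Sco2, which serve the copper site of the Cox2 subunit, fell with Cadict by 0.96 ± 0.09 and 0.58 ± 0.24 and rose with Cu-Cys by 0.24 ± 0.07 and 0.99 ± 0.17. The fall of Sco2 did not pass the test on every scale. Cox19 rose by 0.51 ± 0.12 with Cadict and was lower on library totals (-0.44).

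Of 11 tested regulators of respiratory genes (of 12 listed), 6 were higher with Cadict and 4 lower, beside 40.6% and 47.1% of all tested genes. Tfb2m, a transcription factor of mitochondrial DNA, rose by 1.72 ± 0.07, from 36.4 to 39.9 CPM in Ctrl to 116 to 139 in Cadict. Polrmt, the mitochondrial RNA polymerase that works with it, fell by 2.03 ± 0.10, from 18.1 to 21.3 CPM to 4.76 to 4.97. Ppargc1b, a coactivator of mitochondrial genes, fell by 1.98 ± 0.18. All 3 kept their direction on all 5 scales. Nrf1, whose motif is capitalised in the promoters above, was 30.8 to 32.1 CPM in Ctrl and 22.9 to 25.4 in Cadict, a fall of 0.37 ± 0.07 (adjusted p = 8.11e-05), and rose by 0.36 ± 0.06 with Cu-Cys. It is named, with Gabpa, for its motif. Gabpa, the DNA-binding subunit of GABP, rose by 1.14 ± 0.08 with Cadict and was lower on TPM (-0.16).

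**Figure D5:**
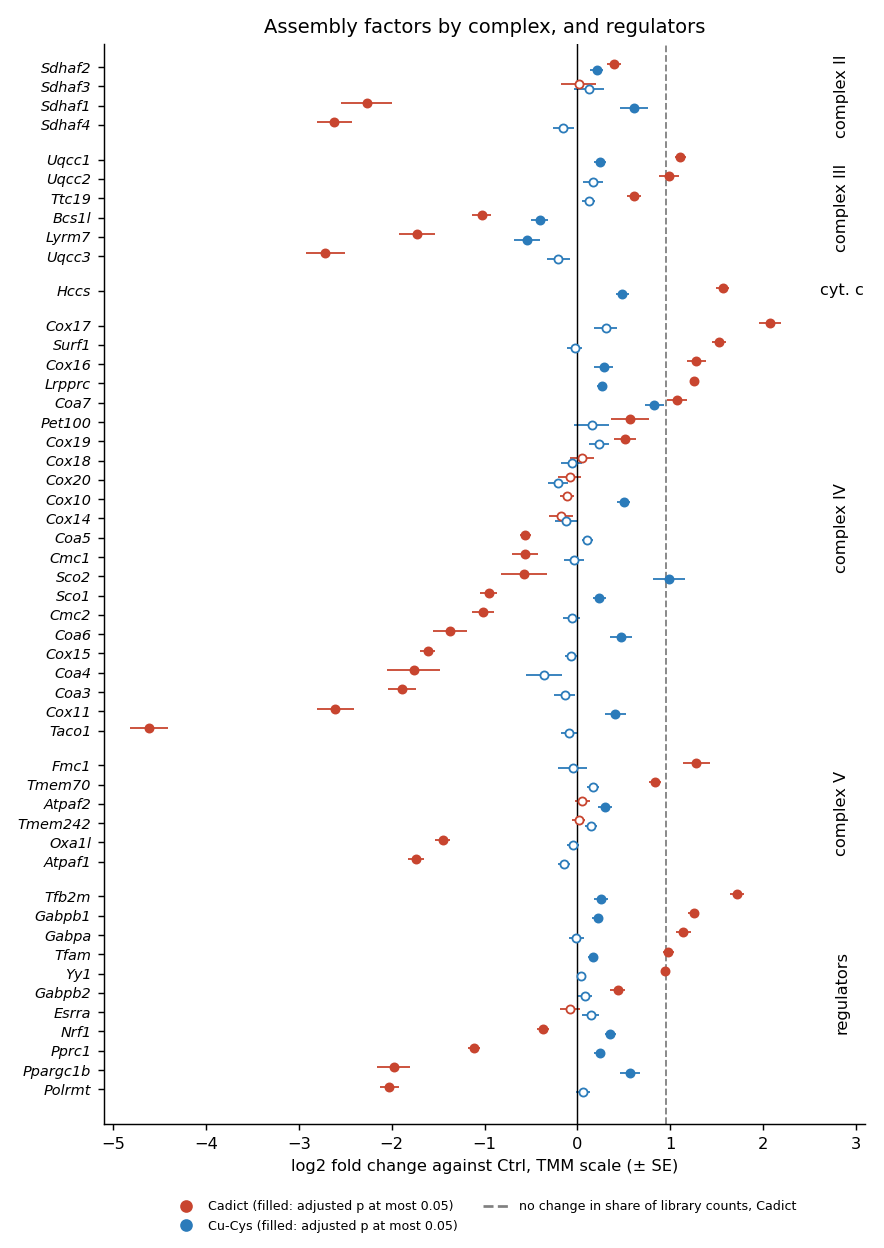
Log2 fold change against Ctrl on the TMM scale (x axis, ± SE, 3 libraries a group) of 39 assembly factors by complex and 11 regulators (y axis), for Cadict (red) and Cu-Cys (blue), with filled points past an adjusted p of 0.05. The dashed line, at 0.95, marks no change in the share of library counts in Cadict, and factors of each of complexes II to V spread to both sides of 0.

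Set beside related gene groups in Cadict against Ctrl, the members' 41 of 43 higher and median of 1.24 compared with 34 of 39 tested complex I subunits and a median of 0.99. The mitochondrial ribosomal proteins had 50 of 78 higher and a median of 0.54, and the cytoplasmic ribosomal proteins 85 of 95 and 1.87. With Cu-Cys the medians were 0.20 for the members, 0.15, 0.26 and 0.28. These groups share the libraries and, in part, short transcripts, and no test between them was made.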

How the data were processed

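RNA from 9 MC38 libraries (3 each of Ctrl, Cu-Cys and Cadict) was analysed from a single deposited table. The deposited table gives, for each gene and library, an expected count (RSEM-style estimate, not normalized), an FPKM and a TPM, all computed by the authors. The submitters' processing notes name HISAT2 2.1.0, Bowtie2 2.3.4.3 and RSEM 1.3.1 and the builds GRCm39 and GRCh38.p13, without roles. The labels name a column kit and DNA nanoball sequencing, whereas the methods name TRIzol and an Illumina instrument. The 9 columns of size-factor counts and 12 columns of group averages were not used. Columns CTL, CC and CCGE were read as Ctrl, Cu-Cys and Cadict, the last by inference.

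Expected counts were rounded and tested in R 4.3.3 with edgeR 4.0.16 (filterByExpr, TMM, 1 quasi-likelihood fit over 9 libraries), with Benjamini-Hochberg adjustment over 11949 genes. Members and lists were chosen with earlier results of these data known. Named were all of complex II, Cyc1 and Cycs, the 3 largest changes per direction in complexes III to V with a mean of at least 10 CPM, paralog sets, copper-delivery genes and the 3 largest changes of each pathway list, and others where the text says so or gives their values as examples of a subunit's role. Library totals were 17905771 to 18293056, and a count of 0 allows 3 counts (0.130 to 0.262 CPM). Intervals and limits cover counting error only. Residuals of same-numbered libraries did not correlate in every pair (r from -0.192 to 0.161 over 8551 genes), so numbers were not treated as pairs. Shared 50-base stretches were counted in GENCODE M21 transcripts (GRCm38). The fit was tested on simulated data in which few genes changed, equally up and down. Cadict changed far more genes than that, so the simulation could not test the TMM scale. Alternatives were DESeq2 1.42.0, limma 3.58.1 on FPKM and TPM, library totals, other filters, a replicate block and leaving out each library.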

Additional observations from a re-analysis of the deposited data

How the results depend on the processing

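These libraries differ in composition, so the direction of a member with Cadict depends on how they are scaled, and the alternatives that reversed a direction or moved a count of members by over 1.5 times were those without TMM or DESeq2 size factors, the fit of 6 libraries alone and the omission of single libraries. DESeq2 size factors, DESeq2's Wald test, a stricter filter (10 counts or more in each library) and no filter kept every count within 1.5 times and every direction of a called gene given values in the text. The cause of the shifts was not tested beyond the construction of each scale. Counts of members under the alternatives below stand without the shares of all genes called there. With Cadict against Ctrl the median of all genes was -1.08 on library totals, -0.78 on FPKM and -1.13 on TPM. Low counts limited what could be said of Cox6a2, Cox4i2 and Cox7a1. The Cadict levels of Taco1, Uqcc3, Sdhaf4, Cox11 and Ppargc1b also rested on only 5 to 20 counts per library, so the sizes of their falls are imprecise.

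With library totals in place of TMM, Cadict against Ctrl had 22 members higher, 10 lower, 2 at least 2-fold higher, 2 at least 2-fold lower and a median of 0.29, with the medians below 0 in complexes II at -0.44 and III at -0.11. Of the genes given values in that comparison, Sdha (-0.76), Sdhd (-0.12), Uqcrb (-0.11), Atp5g1 (-0.033), Cox6b1 (-0.073), Atp5g2 (-0.23), Atp5g3 (-0.19), Cox19 (-0.44), Uqcrfs1 (-0.11), Uqcrc1 (-0.56), Uqcrc2 (-0.66), Uqcr11 (-0.55), Atp5a1 (-0.35) and Atp5k (-0.46) turned below 0. Cadict against Cu-Cys had 17 members higher, 15 lower, 1 at least 2-fold higher, 2 at least 2-fold lower and a median of 0.017, with the medians below 0 in complexes II at -0.39 and III at -0.41. Of the genes given values in that comparison, Sdha (-0.62), Sdhb (-0.045), Sdhd (-0.15), Uqcr11 (-0.59) and Atp5k (-0.85) turned below 0. Cu-Cys against Ctrl had 2 lower and a median of 0.13, with the median below 0 in complex II at -0.034. With limma on FPKM and a pseudocount of 1, Cadict against Ctrl had 18 members higher, 12 lower, 2 at least 2-fold higher, 2 at least 2-fold lower and a median of 0.15, with the medians below 0 in complexes II at -0.44 and III at -0.20. Of the genes given values in that comparison, Sdha (-0.75), Sdhd (-0.14), Uqcrh (-0.010), Uqcrb (-0.20), Cox7c (-0.12), Cox7a2 (-0.014), Atp5g1 (-0.094), Cox6b1 (-0.19), Atp5g2 (-0.29), Atp5g3 (-0.24), Cox19 (-0.45), Uqcrfs1 (-0.12), Uqcrc1 (-0.56), Uqcrc2 (-0.66), Uqcr11 (-0.70), Atp5a1 (-0.36) and Atp5k (-0.73) turned below 0. Cadict against Cu-Cys had 14 members higher, 16 lower, 1 at least 2-fold higher, 2 at least 2-fold lower and a median of -0.057, with the medians below 0 in complexes II at -0.39 and III at -0.47. Of the genes given values in that comparison, Sdha (-0.62), Sdhb (-0.067), Sdhd (-0.16), Uqcr11 (-0.68) and Atp5k (-0.99) turned below 0. Cu-Cys against Ctrl had 4 members higher, 1 lower and a median of 0.11, with the median below 0 in complex II at -0.040. With limma on TPM and a pseudocount of 1 (values in brackets for 0.1 where they differ), Cadict against Ctrl had 10 members higher, 22 lower, 1 at least 2-fold higher, 6 at least 2-fold lower and a median of -0.19, with the medians below 0 in complexes II at -0.79 (-0.80), III at -0.54 and V at -0.14. Of the genes given values in that comparison, Sdha at -1.10 (-1.11), Sdhb at -0.28 (-0.29), Sdhd at -0.48, Uqcrq at -0.058 (-0.059), Uqcrh at -0.35 (-0.36), Uqcrb at -0.54, Cox7c at -0.47, Cox7a2 at -0.36, Atp5g1 at -0.44, Atp5j at -0.14, Cox6b1 at -0.54, Cox7a2l at -0.0004, Cox7b at -0.27, Atp5g2 at -0.64, Atp5g3 at -0.58, Cox19 at -0.79 (-0.82), Uqcrfs1 at -0.47, Uqcrc1 at -0.91 (-0.92), Uqcrc2 at -1.001 (-1.01), Uqcr11 at -1.05, Atp5a1 at -0.70, Atp5k at -1.08 and Gabpa at -0.16 turned below 0. With the pseudocount of 1, Atp5o (-0.04) and Atp5h (-0.15) were below 0 too. Cadict against Cu-Cys had 11 members higher, 23 lower, 1 at least 2-fold higher, 3 (4) at least 2-fold lower and a median of -0.33, with the medians below 0 in complexes II at -0.66 (-0.67), III at -0.74 and V at -0.21. Of the genes given values in that comparison, Sdha at -0.89 (-0.90), Sdhb at -0.34, Sdhd at -0.43 (-0.44), Uqcr11 at -0.95 (-0.96) and Atp5k at -1.26 (-1.27) turned below 0. Cu-Cys against Ctrl had 3 members higher, 3 (4) lower and a median of 0.036, with the median below 0 in complex II at -0.11. The log2 ratio of summed levels, Cadict over Ctrl, turned below 0 on library totals for complex II (-0.57) and complex III (-0.34) and on TPM for complex II (-0.86), complex III (-0.44), complex V (-0.15) and all members (-0.10). Fitting the 6 libraries of Cu-Cys against Ctrl alone called 33 members higher and 1 lower, in place of 17 and 0. Leaving out 1 library at a time gave 8 to 15 members higher there and 39 to 41 higher in Cadict against Ctrl. The replicate number did not pair the libraries, and a fit with it as a block called 41, 40 and 20 members higher in Cadict against Ctrl, Cadict against Cu-Cys and Cu-Cys against Ctrl, and turned the direction of no gene given values in the text.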
